A study of Mus musculus with 46 samples.

Results

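The transcripts of wild-type CD8 single-positive thymocytes (CD8SP) were compared with those of wild-type double-positive thymocytes (DP), the stage from which they arise. Libraries were chosen by their labels alone, 3 CD8SP and 3 DP libraries of the 40 RNA libraries of the series, and all 19521 genes of the count table were followed. All mice were C57BL/6, wild type with no transgene, and kept specific-pathogen-free. Total RNA of sorted primary thymocytes was sequenced, and the other libraries of the series come from further T-cell stages and from mice with an LMO2 transgene. The 3 wild-type CD4 single-positive libraries (CD4SP) of the same strain served for a direct test of the other branch, and 3 wild-type DN3 libraries, an earlier double-negative stage, for levels. The surface markers of the sorts, the age of the mice and any pooling of animals are not stated in the labels. Nothing in the labels says that replicates came from separate mice, so p-values measure the spread between these libraries, which may be technical.

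Double-positive thymocytes carry both coreceptors, CD4 and CD8, and rearrange their T-cell receptor alpha genes with the RAG recombinase. Those whose receptor recognises self peptide on MHC molecules are selected to survive. Cells selected on MHC class I silence Cd4 under the control of RUNX3 and become CD8SP cells, and cells selected on MHC class II follow ThPOK, the product of Zbtb7b, into the CD4 lineage. Single-positive cells then mature in the medulla, regain the IL-7 receptor, raise MHC class I and leave through the receptor S1P1 under the control of KLF2. In mice, cells with CD8 and without CD4 also appear briefly on the way from the double-negative to the DP stage, as cycling immature single-positive cells.

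Depth was alike in the 6 libraries, with 21432962 to 26908811 reads counted on genes. Levels are given as CPM, reads scaled to a fixed library size after TMM normalisation (counts per 1e+06 reads), in the order of replicates 1, 2 and 3. Fold changes are CD8SP over DP on the log2 scale from edgeR's quasi-likelihood test, each with its standard error, and a gene is said to have risen or fallen where its Benjamini-Hochberg adjusted p was under 0.05. The first principal component held 75.3% of the variance and set CD8SP at 65.8, 69.1 and 26.6, against -53.0, -51.7 and -56.8 in DP. CD8SP replicate 3 thus lay nearer to DP than the other two. The second component held 14.8% and set DP replicate 1, at 43.7, apart from DP replicates 2 and 3, at -21.9 and -21.7.

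The markers show what these libraries hold. The CD3 gamma chain of the T-cell receptor was present throughout, with 735, 699 and 689.6 CPM in CD8SP and 493, 452 and 484 CPM of Cd3g in DP. Cd4 had 90.3, 30.01 and 829 CPM in CD8SP, against 2860.1, 1890.1 and 2041 CPM in DP. It was low in CD8SP replicates 1 and 2, as their label requires, while replicate 3 lay between these and the DP libraries. Rag1 repeated this, with 615, 448 and 2935 CPM in CD8SP, against 8833, 7468 and 7365 CPM in DP. Over 19 DP genes, CD8SP replicate 3 lay a median of 37.3% of the way from CD8SP replicates 1 and 2 to DP, with a range of 17.7% to 52.4%. DP replicate 1 differed in dividing-cell transcripts, as in Mki67 with 401 CPM there and 1462 and 1213 CPM in DP replicates 2 and 3. Haemoglobin transcripts were high in the same pair of libraries, with 69.5 CPM of Hba-a1 in CD8SP replicate 3 and 61.6 CPM in DP replicate 1, and 6.33 to 19.6 CPM in the other 4; its near-identical copies can share reads. The part of these differences in any result was not tested. Counts of listed genes are therefore also given without both libraries, an alternative chosen after the data were seen.

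**Figure D1:**
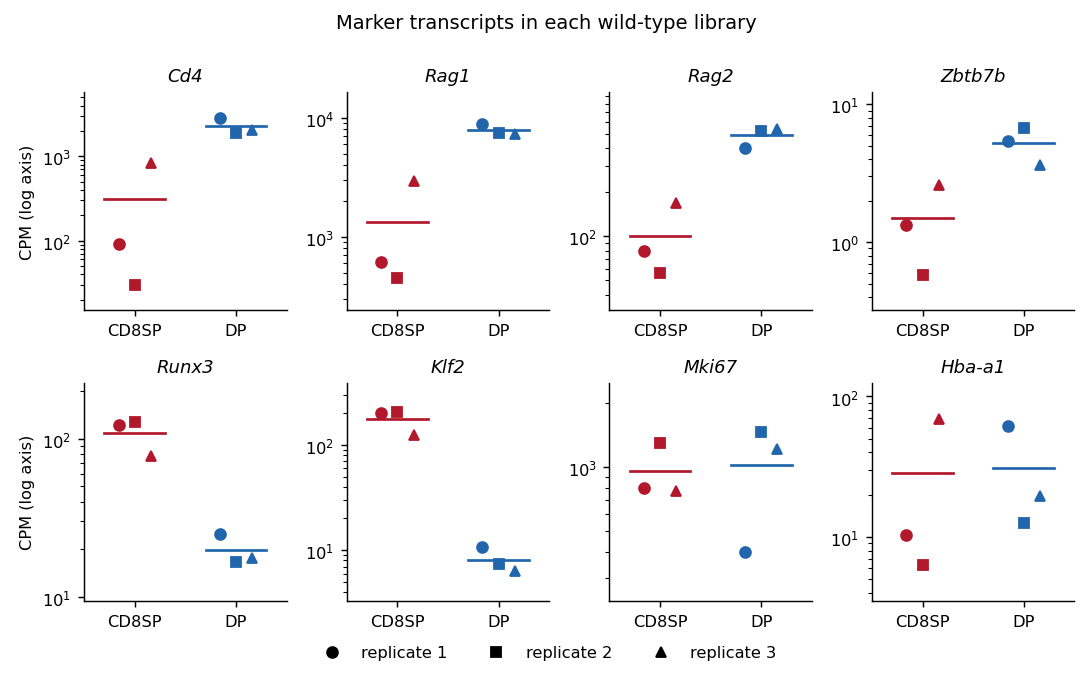
Levels in CPM (log axis) of 8 marker transcripts in each wild-type library, CD8SP in red and DP in blue, with a symbol for each replicate and a line at the mean. Cd4 and Rag1 of CD8SP replicate 3 (triangles) lie between the other CD8SP libraries and DP, Mki67 of DP replicate 1 (circle) lies below the other DP libraries, and Runx3 and Klf2 are higher in all 3 CD8SP libraries than in any DP library.

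Of 11691 genes tested, 2434 rose in CD8SP and 1974 fell, 20.8% and 16.9%, and 37.7% in all. At least 2-fold changes were found for 1275 genes that rose (10.9%) and 809 that fell (6.92%), and at least 8-fold changes for 206 and 26. The median change over all genes was -0.03. The total of 4408 depended on single libraries. It was 2163 without CD8SP replicate 1, with 12.8% of genes higher and 5.36% lower, and 2437 without CD8SP replicate 2, with 13.4% and 7.15%. It was 2901 without DP replicate 2, with 14.9% and 9.51%, and 2647 without DP replicate 3, with 13.9% and 8.40%. Without CD8SP replicate 3 the shares were 21.1% and 17.0%, and without DP replicate 1 they were 24.8% and 21.2%. Without both CD8SP replicate 3 and DP replicate 1 it was 6835, of which 3605 rose (30.4%) and 3230 fell (27.2%). A total of 1989 of the 4408 calls held with each library left out in turn. With 3 libraries a group, no exact test on 1 gene can give a p under 0.1, so calls rest on the model fitted across genes. In bulk samples, fewer cells of a type and less RNA per cell cannot be told apart.

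The largest increases among genes at 5 CPM or more included adhesion molecules, receptors and other surface proteins. Itgae (identifier 16407), the integrin chain CD103 that binds E-cadherin on epithelium, had 223, 339 and 153 CPM in CD8SP, against 0.711, 2.001 and 1.09 CPM in DP. The groups were far apart, with a log2 fold change of 7.53 ± 0.47 (adjusted p = 0.000147). Nkg7, a granule protein of cytotoxic cells, had 119, 139.8 and 68.4 CPM in CD8SP, against 0.996, 0.942 and 0.469 CPM in DP, a change of 7.09 ± 0.4. Further increases were those of Adgrg5 (7.2 ± 0.54), an adhesion G-protein-coupled receptor, Ggt1 (6.99 ± 0.41), a gamma-glutamyltransferase, and Art2b (6.46 ± 0.5), a surface ADP-ribosyltransferase of mature T cells. Rflnb (6.33 ± 0.37), which acts on actin filaments, H2-Q6 (6.27 ± 0.57), Cd7 (6.27 ± 0.32) and Clcf1 (6.09 ± 0.65), a cytokine of the IL-6 family, rose as well. Crtam and Klrd1 also belong here, but DP held at most 3 reads per library of either, so no fold change is given. Crtam, a surface protein that binds nectin-like molecules, had 13.2, 20.1 and 7.43 CPM in CD8SP, against 0, 0.118 and 0.0391 CPM in DP. Klrd1, the CD94 chain of NK-cell receptors, had 10.3, 14.3 and 7.596 CPM in CD8SP, against 0.142, 0.118 and 0.117 CPM in DP. The calls named here held with each library left out.

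The largest decreases among genes at 5 CPM or more that are named here lay between -2.87 and -3.73 on the log2 scale. Their size rests on CD8SP replicate 3, without which the same genes lay between -3.74 and -7.14. Vamp1, a vesicle fusion protein, had 24.9, 37.6 and 76.7 CPM in CD8SP, against 244, 500.1 and 525 CPM in DP, a log2 fold change of -3.19 ± 0.47 (adjusted p = 0.00247). CD8SP replicate 3 was again the highest of its group and still below every DP library. Scn2b (-3.28 ± 0.53), a sodium channel beta subunit, and Adcy1 (-3.18 ± 0.59), an adenylyl cyclase, fell likewise, and these 3 calls held with each library left out. The others named here were each lost without at least 1 library. Scn4b, another sodium channel subunit, changed by -3.73 ± 0.96 and lost its call without CD8SP replicate 1 (adjusted p = 0.0682), DP replicate 1 (0.0531), DP replicate 2 (0.0829) or DP replicate 3 (0.0877). Spo11, the meiotic DNA-cutting protein, changed by -3.61 ± 0.84 and lost it without DP replicate 2 (adjusted p = 0.0689) or DP replicate 3 (0.0768). Itgam (-2.91 ± 0.65), an integrin chain of myeloid cells, lost it without CD8SP replicate 1 (adjusted p = 0.0537). The metalloprotease gene Adam12 (-3.04 ± 0.96) lost it without CD8SP replicate 1 (adjusted p = 0.134), DP replicate 1 (0.0868), DP replicate 2 (0.13) or DP replicate 3 (0.141). Losses were as wide for Smoc1 (-3.3 ± 1.05), without CD8SP replicate 1 (adjusted p = 0.128), CD8SP replicate 2 (0.0576), DP replicate 1 (0.117), DP replicate 2 (0.12) or DP replicate 3 (0.115), and Medag (-3.22 ± 1.1), without CD8SP replicate 1 (adjusted p = 0.13), CD8SP replicate 2 (0.079), DP replicate 1 (0.0934), DP replicate 2 (0.163) or DP replicate 3 (0.183). Fn3k (-3.07 ± 0.82), a kinase of glycated proteins, lost its call without CD8SP replicate 1 (adjusted p = 0.075), CD8SP replicate 2 (0.0505), DP replicate 2 (0.0794) or DP replicate 3 (0.0909). Ankrd6 (-2.87 ± 0.73) did so without CD8SP replicate 1 (adjusted p = 0.0707), DP replicate 1 (0.0527), DP replicate 2 (0.0861) or DP replicate 3 (0.0781). In the genes named here, CD8SP replicate 3 had the highest level of the CD8SP libraries and lay below every DP library.

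**Figure D2:**
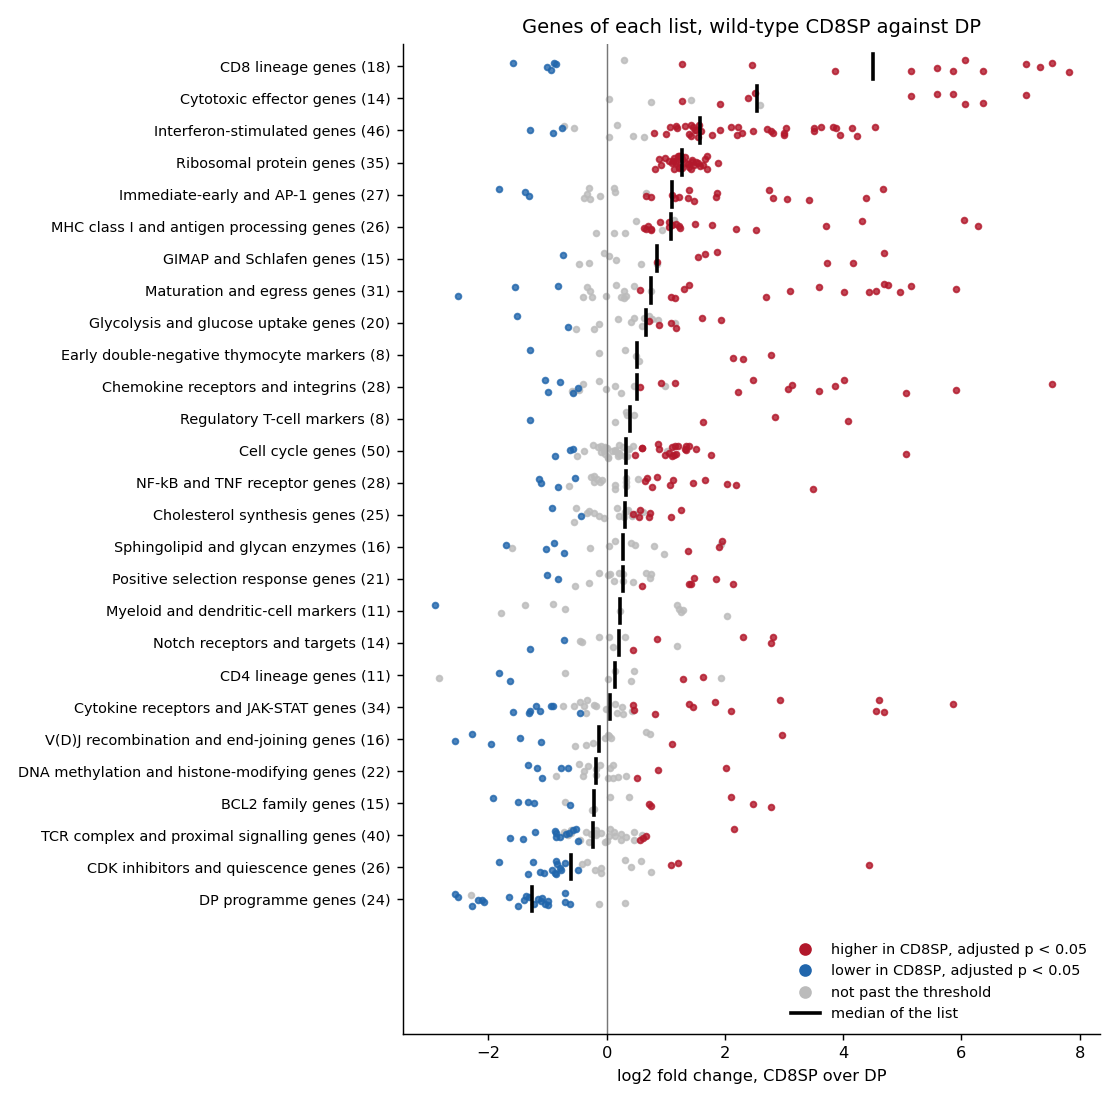
Log2 fold change of CD8SP over DP for each tested gene of the 27 lists with at least 8 tested genes, with the number tested in brackets, ordered by their median (black bar). Genes past the threshold are red (higher in CD8SP) or blue (lower). The CD8 lineage list has the highest median, at 4.50, and the DP programme list the lowest, at -1.27.

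Both CD8 chains fell, beside the low Cd4 of CD8SP replicates 1 and 2. Cd8a (identifier 12525) had 1725, 1641 and 1901 CPM in CD8SP, against 3746, 2941 and 2849 CPM in DP, a log2 fold change of -0.86 ± 0.18 (adjusted p = 0.0101). Cd8b1 had 1181, 1102 and 1526 CPM in CD8SP, against 3569, 2062 and 2005 CPM in DP, a change of -1.0 ± 0.27. Every CD8SP library lay below every DP library for both chains. The call of Cd8a was lost without CD8SP replicate 1 (adjusted p = 0.0534) or CD8SP replicate 2 (0.0509), and that of Cd8b1 without CD8SP replicate 1 (adjusted p = 0.0941) or CD8SP replicate 2 (0.0862). For Cd4, where replicate 3 widened the spread, the log2 fold change of -2.84 ± 1.04 did not pass (adjusted p = 0.062). It was -5.02 ± 0.51 without CD8SP replicate 3 and DP replicate 1 (adjusted p = 0.000453).

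Among the factors that set the lineage, Runx3 rose and Zbtb7b fell. Runx3 (identifier 12399), the repressor of Cd4, had 121, 127 and 78.2 CPM in CD8SP, against 24.9, 16.7 and 17.6 CPM in DP, a log2 fold change of 2.46 ± 0.24. On the authors' FPKM scale, Runx3 had 33.6, 36.7 and 22.9 FPKM in CD8SP and 25.7, 24.5 and 39.7 FPKM in CD4SP. In DP it had 6.76, 5.14 and 5.29 FPKM, so Runx3 was higher in both branches and not particular to CD8SP. Its relative Runx1 fell by 0.95 ± 0.18 on the log2 scale, with 96.04, 85.8 and 127 CPM in CD8SP and 207, 198 and 191 CPM in DP. Their shared partner Cbfb had 319, 289 and 282 CPM in CD8SP and 218, 264 and 241 CPM in DP and did not pass. Zbtb7b, which encodes ThPOK, was low in both stages, with 1.33, 0.578 and 2.603 CPM in CD8SP and 5.45, 6.75 and 3.598 CPM in DP. Its change of -1.81 ± 0.51 lost its call without CD8SP replicate 1 (adjusted p = 0.095), CD8SP replicate 2 (0.0523) or DP replicate 2 (0.0748). Of 11 tested genes of the CD4 lineage list, 2 rose and 2 fell, against 20.8% and 16.9% of all genes. Without CD8SP replicate 3 and DP replicate 1, 4 rose and 3 fell, against 30.4% and 27.2% of all genes. The pairs of counts were 1 and 0 without CD8SP replicate 1, 1 and 1 without CD8SP replicate 2 and 3 and 1 without DP replicate 2. Icos, a costimulator, rose by 1.28 ± 0.19, whereas Gata3 (-0.7 ± 0.29) and Tox (0.02 ± 0.27) did not pass.

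Of 18 genes of the CD8 lineage list, 12 rose and 5 fell, against 20.8% and 16.9% of all genes tested. Members close to absent in DP, such as Eomes, could enter the test only through CD8SP. A fall could not have been found for them. The median change of the list was 4.50, against -0.03 over all genes. Setting the 3 genes of few DP reads at their bound left it the same, since they stayed above it. Other members close to absent in DP were not covered by this. The count was the same without CD8SP replicate 3 and DP replicate 1, against 30.4% and 27.2% of all genes. With each library left out, 11 of the increases held. The number that fell was 2 without CD8SP replicate 1 and 2 without CD8SP replicate 2. The genes that rose include the T-box factor Eomes, with 6.78, 8.86 and 3.29 CPM in CD8SP, against 0.1897, 0.0785 and 0.117 CPM in DP, a change of 5.59 ± 0.54. Il2rb, the chain that IL-2 and IL-15 receptors share, had 224, 228 and 128 CPM in CD8SP, against 2.18, 3.88 and 3.87 CPM in DP, a change of 5.86 ± 0.34. Ctsw (5.14 ± 0.35), a cathepsin of cytotoxic cells, Cst7 (6.07 ± 0.56), a cystatin, and Cxcr3 (3.86 ± 0.79), a chemokine receptor of effector cells, rose too. Besides the coreceptor chains and Runx1, Socs1 (-1.59 ± 0.29), an inhibitor of cytokine signals, fell. Patz1 (-0.9 ± 0.28), a zinc-finger factor, fell too, a call lost without CD8SP replicate 1 (adjusted p = 0.116), CD8SP replicate 2 (0.123) or DP replicate 1 (0.0629). Much of the rise was shared with CD4SP, where 12 rose and 4 fell at least 2-fold from DP, against 13.8% and 10.6% of all genes. Set directly against CD4SP, 10 of the 18 were higher in CD8SP and 3 lower, against 24.1% and 20.6% of all genes. Il2rb had 68.8, 72.3 and 41.5 FPKM in CD8SP and 64.9, 58.9 and 56.1 FPKM in CD4SP. Cxcr3 had 2.58, 1.19 and 0.51 FPKM in CD8SP and 9.8, 7.75 and 7.47 FPKM in CD4SP.

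Genes of cytotoxic granules rose, though not all of them were detected well enough to be tested. Of 22 genes of the cytotoxic effector list, 14 could be tested. Of these, 10 rose and none fell, against 20.8% and 16.9% of all genes. The list summed to 241 to 493 CPM in CD8SP and 31.2 to 33.5 CPM in DP. Members close to absent in DP could enter the test only through CD8SP, so a fall could not have been found for them. Without CD8SP replicate 3, with or without DP replicate 1, 17 could be tested and 15 rose. The shares of all genes that rose were 21.1% without CD8SP replicate 3 and 30.4% without both libraries. Gzma, granzyme A, had 60.9, 75.9 and 54.4 CPM in CD8SP, against 13.7, 17.5 and 19.4 CPM in DP, a change of 1.92 ± 0.19. Prf1, the pore-forming perforin, had 29.9, 27.4 and 14.98 CPM in CD8SP, against 6.16, 3.53 and 4.11 CPM in DP, a change of 2.39 ± 0.32. The CD8SP levels stood above DP in every library for both. Gzmb, granzyme B, with 1.42, 0.578 and 0.213 CPM in CD8SP and 0.0474, 0.0785 and 0.0782 CPM in DP, did not reach the minimum for testing. Neither did Ifng, interferon gamma, with 0.142, 0.398 and 0 CPM in CD8SP and 0 in every DP library. The lymphotactin gene Xcl1 rose by 5.86 ± 0.98, whereas Ccl5 varied between CD8SP libraries, at 20.01, 6.62 and 1.41 CPM, and did not pass. Increases in this list were not particular to CD8SP. In CD4SP, 14 of 19 tested rose and 1 fell at least 2-fold from DP, against 13.8% and 10.6% of all genes. Set directly against CD4SP, 7 of 19 were higher in CD8SP and 6 lower, against 24.1% and 20.6% of all genes. Gzmb had 1.1, 0.46 and 0.17 FPKM in CD8SP and 8.28, 7.06 and 3.93 FPKM in CD4SP.

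The programme of the DP stage fell almost as a whole. Of 24 DP programme genes, 21 fell and none rose, against 16.9% and 20.8% of all genes, with a median of -1.27. Without CD8SP replicate 3 and DP replicate 1, 22 fell, against 27.2% of all genes, with a median of -1.66. The count was 7 without CD8SP replicate 1, where 5.36% of all genes fell, and 7 of the calls held with each library left out. Among these 7, Rag2 (identifier 19374), the second RAG subunit, had 79.1, 55.9 and 168 CPM in CD8SP, against 402, 524 and 535 CPM in DP, a change of -2.27 ± 0.39. The CD8SP libraries all lay below the DP libraries.

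Rag1, whose levels stand above, changed by -2.57 ± 0.67 (adjusted p = 0.0197), and its call was lost without CD8SP replicate 1 (adjusted p = 0.0766), DP replicate 1 (0.0575) or DP replicate 3 (0.0531). Without both libraries that stand apart its change was -3.78 ± 0.18 (adjusted p = 5.65e-05). Chemokine receptors of the DP stage fell with every library left out in turn. Ccr9, the receptor for CCL25, had 709.7, 462 and 819 CPM in CD8SP, against 1492, 1316 and 1313 CPM in DP, a change of -1.05 ± 0.23. Cxcr4, the receptor for CXCL12, had 302, 203 and 303 CPM in CD8SP, against 617, 488 and 503 CPM in DP, a change of -0.99 ± 0.21. Cd1d1 (-1.0 ± 0.22), which presents lipids to NKT cells, Rmnd5a (-1.66 ± 0.28) and Arpp21 (-1.37 ± 0.27) fell in each of these alternatives too. Bcl6 (-2.08 ± 0.48), a repressor, lost its call without CD8SP replicate 1 (adjusted p = 0.064). Themis (-1.31 ± 0.29), a modifier of receptor signals in selection, lost it without CD8SP replicate 1 (adjusted p = 0.0575) and Dntt (-1.1 ± 0.25), the terminal transferase, without CD8SP replicate 1 (adjusted p = 0.0568). Satb1 (-1.1 ± 0.29), a chromatin organiser, lost it without CD8SP replicate 1 (adjusted p = 0.0919) or CD8SP replicate 2 (0.0631).

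A pair of genes for surface proteins of immature cells did not pass the test. Cd24a, the heat-stable antigen lost in late maturation, had 368, 254 and 362 CPM in CD8SP and 308, 387 and 378 CPM in DP, and the groups overlapped. Ptcra, the pre-T-cell receptor alpha chain, had 52.9, 37.5 and 47.5 CPM in CD8SP and 41.9, 35.9 and 33.9 CPM in DP, with overlap as well. The part of immature single-positive cells in these values was not tested.

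Recombination and end-joining genes changed in both directions. Of 16 tested, 2 rose and 5 fell, against 20.8% and 16.9% of all genes, and 4 and 6 without CD8SP replicate 3 and DP replicate 1, against 30.4% and 27.2% of all genes. Dclre1c, which encodes the hairpin-opening nuclease Artemis, had 19.5, 35.6 and 46.1 CPM in CD8SP, against 83.4, 152 and 159 CPM in DP, a change of -1.96 ± 0.35. Lig4 (-1.47 ± 0.23), the ligase of end joining, fell with it. Poll, a gap-filling polymerase, rose by 2.96 ± 0.38 and Xrcc5, the Ku80 subunit, by 1.1 ± 0.15, while its partner Xrcc6 (-0.34 ± 0.19) did not pass. Without CD8SP replicate 1, 3 members fell.

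E proteins are helix-loop-helix factors that hold thymocytes in the DP state, and Id proteins block them. Of 6 tested, 1 rose and 3 fell, against 20.8% and 16.9% of all genes. The counts were the same without CD8SP replicate 3 and DP replicate 1, against 30.4% and 27.2% of all genes. The falls were 1 without CD8SP replicate 1, CD8SP replicate 2, DP replicate 2 or DP replicate 3. Of the E protein genes, Tcf4 fell by 0.93 ± 0.17. Tcf12 fell by 0.7 ± 0.21 and lost its call without CD8SP replicate 1 (adjusted p = 0.127), CD8SP replicate 2 (0.12), DP replicate 2 (0.0631) or DP replicate 3 (0.0972). Tcf3 (-0.05 ± 0.18) did not pass. Id2 had 55.8, 58.1 and 25.5 CPM in CD8SP, against 9.104, 7.38 and 6.69 CPM in DP, a change of 2.59 ± 0.32. Id1 fell by 1.25 ± 0.36 and lost its call without CD8SP replicate 1 (adjusted p = 0.0814), CD8SP replicate 2 (0.0978), DP replicate 2 (0.0781) or DP replicate 3 (0.0906). Id3, at 129, 71.9 and 94.8 CPM in CD8SP and 104, 66.7 and 74.2 CPM in DP, overlapped between the groups.

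E proteins bind the letters CAGCTG and CAGGTG, which were counted on both strands in RefSeq promoter windows of 300 bases (250 before and 50 after each annotated start, build GRCm38.p6). CAGCTG reads the same on both strands, so each site was counted once. Of the 24 DP programme genes, 18 matched a gene with a window, and 7 of these held CAGCTG (38.9%) and 5 held CAGGTG (27.8%), against 18.3% and 22.6% of all genes with a window. CAGCTG was also in 6 of 26 maturation genes (23.1%) and 3 of 12 CD8 lineage genes (25.0%), and CAGGTG in 7 of 26 (26.9%) and 5 of 12 (41.7%). Of 14 recombination and end-joining genes, 6 held CAGCTG (42.9%) and 1 held CAGGTG (7.14%). Each motif was in 2 of 21 MHC class I and antigen processing genes (9.52%). Of 33 interferon-stimulated genes, 6 held CAGCTG (18.2%) and 5 held CAGGTG (15.2%). A match is a description and not evidence of binding. The 250 bases before the start of Rag1 are shown because this gene fell and holds both motifs next to each other (capitals), first CAGGTG at -135 and then CAGCTG at -128. They lie at chr2:101649533-101649782 on the minus strand.
Rag1: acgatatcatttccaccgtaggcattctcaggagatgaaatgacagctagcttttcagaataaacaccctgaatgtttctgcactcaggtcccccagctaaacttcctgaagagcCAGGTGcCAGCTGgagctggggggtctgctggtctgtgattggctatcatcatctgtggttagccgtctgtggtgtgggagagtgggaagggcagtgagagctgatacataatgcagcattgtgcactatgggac

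Genes of maturation and exit from the thymus rose more often than they fell. Of 31 tested, 16 rose and 3 fell, against 20.8% and 16.9% of all genes, with a median of 0.75. Without CD8SP replicate 3 and DP replicate 1, 22 rose and 5 fell, against 30.4% and 27.2% of all genes. Of the 16 increases, 15 held with each library left out. The number that fell was 1 without CD8SP replicate 1, CD8SP replicate 2 or DP replicate 2. Klf2 (identifier 16598), the factor that drives the exit programme, had 199, 204 and 125 CPM in CD8SP, against 10.8, 7.34 and 6.296 CPM in DP, a change of 4.44 ± 0.29 (adjusted p = 0.000156). S1pr1 (identifier 13609), the receptor that guides cells to the blood along sphingosine 1-phosphate, had 111, 167 and 89.5 CPM in CD8SP, against 1.47, 2.86 and 1.72 CPM in DP, a change of 5.91 ± 0.36. For both, replicate 3 was the lowest of the CD8SP libraries and far above every DP library.

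Ccr7, the receptor that draws selected cells into the medulla, had 213, 266 and 139 CPM in CD8SP, against 15.2, 13.8 and 9.42 CPM in DP, a change of 4.01 ± 0.3. The integrin chain Itgb7 had 282, 394 and 215 CPM in CD8SP, against 29.4, 23.3 and 21.4 CPM in DP, a change of 3.59 ± 0.27. It pairs with the CD103 chain described above, so both chains of one integrin rose. Ly6c2 (5.15 ± 0.41) and Ly6a (3.1 ± 0.35), surface antigens of mature T cells, and the membrane proteins Ms4a4b (4.96 ± 0.42), Ms4a4c (4.76 ± 0.49) and Ms4a6b (2.69 ± 0.31) rose too. Foxo1, which acts upstream of Klf2 and Il7r, rose by 1.08 ± 0.19. Klf3, a repressor of the same family as KLF2, fell by 1.56 ± 0.22, with 104, 113 and 169.7 CPM in CD8SP and 345, 398 and 395 CPM in DP. Cd44 (0.47 ± 0.28), Itgal (-0.41 ± 0.2) and Lef1 (0.3 ± 0.29) did not pass.

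KLF factors bind CACCC. Of 26 maturation genes with a window, 18 held CACCC on either strand (69.2%), against 59.8% of all genes with a window. The motif was more frequent in DP programme genes, with 14 of 18 (77.8%), and in MHC class I and antigen processing genes, with 17 of 21 (80.95%). The same held for 11 of 14 recombination and end-joining genes (78.6%) and 9 of 12 CD8 lineage genes (75.0%). It was in 22 of 33 interferon-stimulated genes (66.7%). The motif thus does not set the maturation genes apart. The window of Itgb7, shown for its 4 matches (capitals, with the other strand reading GGGTG), lies at chr15:102231936-102232185 on the minus strand.
Itgb7: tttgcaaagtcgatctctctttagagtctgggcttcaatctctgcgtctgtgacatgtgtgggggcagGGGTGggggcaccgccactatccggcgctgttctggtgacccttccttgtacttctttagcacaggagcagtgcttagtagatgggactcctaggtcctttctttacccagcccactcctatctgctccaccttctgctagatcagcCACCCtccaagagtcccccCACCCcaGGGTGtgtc

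**Figure D3:**
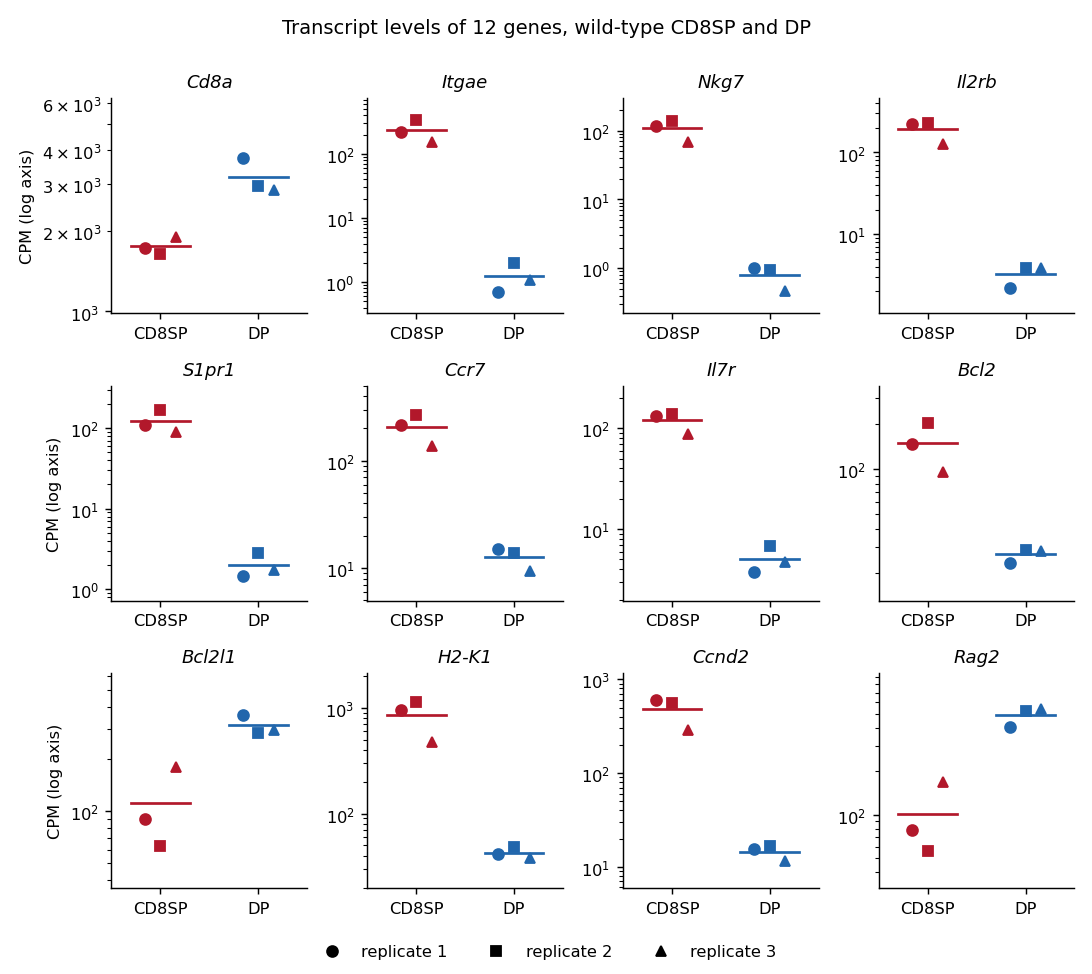
Levels in CPM (log axis) of 12 genes in each library, CD8SP in red left of DP in blue, with a symbol for each replicate and a line at the mean. For 9 genes (Itgae, Nkg7, Il2rb, S1pr1, Ccr7, Il7r, Bcl2, H2-K1 and Ccnd2) all CD8SP libraries lie above DP, and for Cd8a, Bcl2l1 and Rag2 all lie below.

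Cytokine receptor genes included several that rose and several that fell. Il7r, the IL-7 receptor alpha chain, had 134, 139 and 87.1 CPM in CD8SP, against 3.75, 6.79 and 4.73 CPM in DP, a change of 4.55 ± 0.29. The common gamma chain Il2rg, at 839, 734 and 719 CPM in CD8SP and 799.7, 451 and 458 CPM in DP, did not pass. Il6ra (4.61 ± 0.24), Il18r1 (2.93 ± 0.37) and Il27ra (2.09 ± 0.21) rose, whereas Il4ra (-1.19 ± 0.31) and Ifngr1 (-1.13 ± 0.29) fell. The call of Il4ra was lost without CD8SP replicate 1 (adjusted p = 0.0864) or CD8SP replicate 2 (0.0707), and that of Ifngr1 without CD8SP replicate 1 (adjusted p = 0.0842) or CD8SP replicate 2 (0.0656). Among signal inhibitors, Cish, a target of STAT5, rose by 4.69 ± 0.38, while Socs1 and Socs3 (-1.31 ± 0.15) fell. Jak3, the kinase on the common gamma chain, rose by 1.82 ± 0.21. In the whole list of cytokine receptor and JAK-STAT genes, 12 of 34 rose and 8 fell, against 20.8% and 16.9% of all genes, and 5 fell without CD8SP replicate 1 or 2. Without CD8SP replicate 3 and DP replicate 1, 14 rose and 12 fell of 33 tested, against 30.4% and 27.2% of all genes.

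The genes of the prosurvival proteins BCL2 and BCL-XL changed in opposite directions. Bcl2 (identifier 12043) had 148, 204 and 96.2 CPM in CD8SP, against 23.4, 28.8 and 28.3 CPM in DP, a change of 2.48 ± 0.27. Bcl2l1, which encodes BCL-XL, had 89.6, 62.98 and 179.9 CPM in CD8SP, against 360.5, 282 and 296 CPM in DP, a change of -1.5 ± 0.36, and its call was lost without CD8SP replicate 1 (adjusted p = 0.0708). On the authors' FPKM scale, which takes gene length into account, Bcl2 had 22.1, 34.99 and 15.5 FPKM in CD8SP and 4.05, 5.43 and 5.54 FPKM in DP, and Bcl2l1 had 37.9, 27.3 and 79.9 FPKM in CD8SP and 145, 124 and 133 FPKM in DP. Bcl2l1 was thus far above Bcl2 in every DP library, above it in CD8SP replicates 1 and 3 and below it in CD8SP replicate 2. Of 15 BCL2 family genes tested, 5 rose and 5 fell, against 20.8% and 16.9% of all genes. The number was the same without CD8SP replicate 3 and DP replicate 1, against 30.4% and 27.2% of all genes. The number that fell was 1 without CD8SP replicate 1, and 3 without CD8SP replicate 2, CD8SP replicate 3, DP replicate 2 or DP replicate 3. Bcl2a1b (2.78 ± 0.35) and Bcl2a1d (2.1 ± 0.34), near-identical copies whose reads the counting could split, rose. The killer Bmf fell by 1.93 ± 0.32 and Bid rose by 0.75 ± 0.12, while Bcl2l11, the killer BIM of negative selection, had 124, 83.01 and 142 CPM in CD8SP and 162, 128 and 123 CPM in DP and did not pass.

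MHC class I genes rose together. Of 26 genes of MHC class I and antigen processing, 20 rose and none fell, against 20.8% and 16.9% of all genes, with a median of 1.08. Without CD8SP replicate 3 and DP replicate 1, 24 rose, against 30.4% of all genes. The range with 1 library left out was 14 to 23, and 13 of the calls held each time. H2-K1 (identifier 14972), a classical class I heavy chain, had 944, 1126 and 474 CPM in CD8SP, against 41.6, 48.5 and 37.7 CPM in DP, a change of 4.31 ± 0.35 (adjusted p = 0.000301). H2-D1, the other classical chain, had 912, 971 and 470.2 CPM in CD8SP, against 222, 159.8 and 137 CPM in DP, a change of 2.18 ± 0.32. B2m (identifier 12010), the light chain of all class I molecules, had 1557, 1607 and 862 CPM in CD8SP, against 233, 248 and 218 CPM in DP, a change of 2.52 ± 0.26. For all 3, replicate 3 was the lowest of the CD8SP libraries and still above every DP library.

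Nlrc5, the transactivator of class I genes, changed by 3.71 ± 0.36, with 128, 232 and 104 CPM in CD8SP, against 8.44, 14.9 and 11.9 CPM in DP. The nonclassical H2-Q7 (6.05 ± 0.59) and H2-Q6 had the largest changes of the list, but these genes are near-identical copies and their split is uncertain. Genes of peptide supply rose too. The immunoproteasome subunit Psmb9 rose by 1.49 ± 0.16, the activator Psme2 by 1.77 ± 0.2, the trimming enzyme Erap1 by 1.22 ± 0.19 and Tapbp, which loads peptide, by 1.11 ± 0.25. Tap1 (0.75 ± 0.16), a chain of the peptide transporter, rose, with a call lost without DP replicate 3 (adjusted p = 0.0505), whereas Tap2, its other chain, had 282, 196 and 269 CPM in CD8SP and 341, 234 and 274 CPM in DP and did not pass. The nonclassical H2-T10 (0.12 ± 0.23), H2-T24 (0.31 ± 0.15) and H2-T23 (0.5 ± 0.18) did not pass either. Cd74, the class II invariant chain, did not pass, with 129.8, 40.6 and 38.9 CPM in CD8SP and 63.8, 16.1 and 15.3 CPM in DP, where replicate 1 of each stage was the highest.

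**Figure D4:**
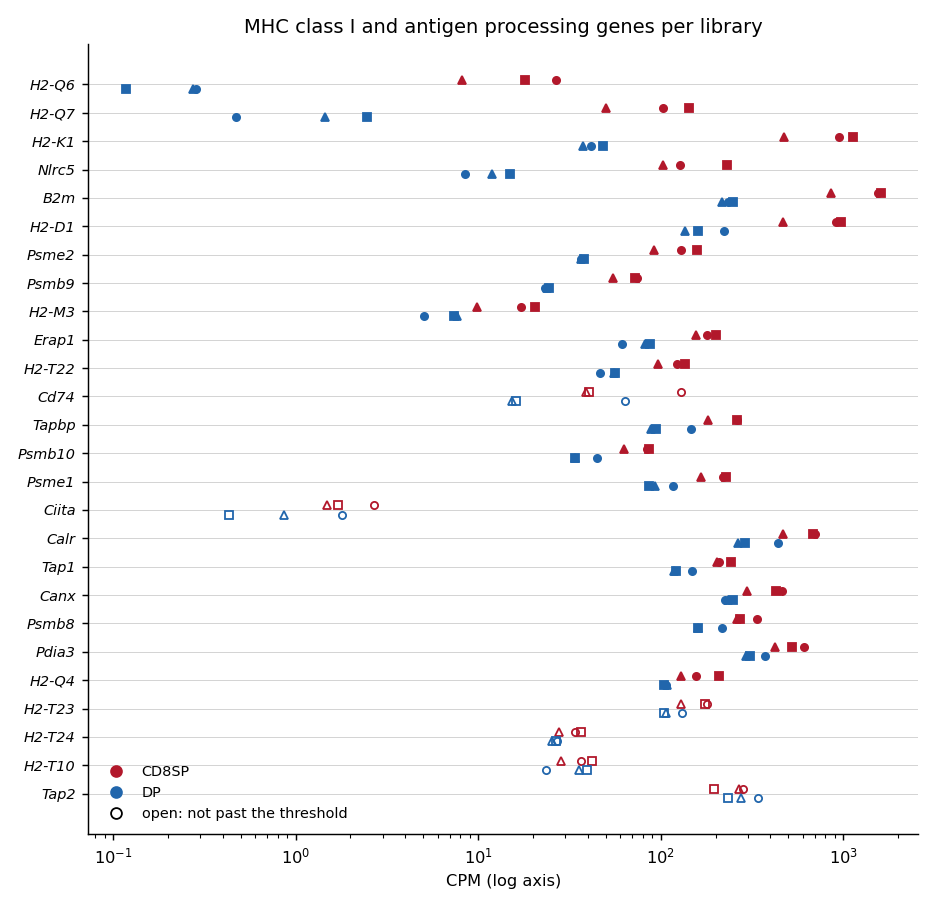
Levels in CPM (log axis) of 26 genes of MHC class I and antigen processing in each library, CD8SP in red above DP in blue in each row, ordered by log2 fold change with the largest at the top. Symbols are replicates as in the plot of marker transcripts (circle 1, square 2, triangle 3), and open symbols mark genes that did not pass. In H2-K1, B2m and H2-D1, all CD8SP libraries lie above all DP libraries.

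Most interferon-stimulated genes rose. Of 46 tested, 37 rose and 3 fell, against 20.8% and 16.9% of all genes, with a median of 1.58. Without CD8SP replicate 3 and DP replicate 1, 38 rose and 3 fell, against 30.4% and 27.2% of all genes. The increases numbered 34 to 37 with 1 library left out, and the falls 1 without CD8SP replicate 1, CD8SP replicate 2 or DP replicate 3. Irf7, a factor of the interferon response, had 71.5, 90.8 and 46.00 CPM in CD8SP, against 11.05, 10.6 and 9.97 CPM in DP, a change of 2.72 ± 0.25. Ifit1, which binds viral RNA caps, had 47.00, 42.8 and 19.8 CPM in CD8SP, against 2.798, 2.43 and 2.27 CPM in DP, a change of 3.87 ± 0.35. Isg15, a ubiquitin-like protein, had 24.99, 23.03 and 14.7 CPM in CD8SP, against 4.41, 4.002 and 4.38 CPM in DP, a change of 2.29 ± 0.23. In each of them the lowest CD8SP library was replicate 3, and it lay above every DP library.

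Irf9, a part of the factor that type I interferon activates, rose by 1.01 ± 0.2, while its partner Stat2 fell by 0.9 ± 0.17, with 48.6, 65.4 and 67.4 CPM in CD8SP and 125, 108 and 105 CPM in DP. Both calls held with each library left out. Samhd1 (3.95 ± 0.33), Oas3 (3.0 ± 0.25), Ifi27l2a (4.16 ± 0.34) and Rtp4 (2.82 ± 0.23) rose. Tgtp1 (4.54 ± 0.33) and Tgtp2 (3.62 ± 0.32) are near-identical copies whose split is uncertain. The guanylate-binding proteins differed among themselves: Gbp10 (4.24 ± 0.63) and Gbp5 (2.23 ± 0.3) rose, Gbp6 (0.44 ± 0.26) and Gbp7 (0.64 ± 0.31) did not pass, and Gbp8 fell by 1.3 ± 0.33, a call lost without CD8SP replicate 1 (adjusted p = 0.0763), CD8SP replicate 2 (0.0663) or DP replicate 3 (0.0536). The receptor chain Ifnar1 fell (-0.45 ± 0.14) and lost its call without CD8SP replicate 1 (adjusted p = 0.156), CD8SP replicate 2 (0.121), DP replicate 2 (0.113) or DP replicate 3 (0.135), while Ifnar2 (0.17 ± 0.15) did not pass.

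The interferon response element has the core GAAA, any 2 bases and GAAA again, a motif chosen here after the values were seen. It was found, on either strand, in 22 of 33 interferon-stimulated genes with a window (66.7%), in 5 of 21 MHC class I and antigen processing genes (23.8%) and in 3.99% of all genes with a window. None of 26 maturation genes held it, and 1 of 18 DP programme genes did. The windows of Isg15 (chr4:156200819-156201068 on the minus strand), Ifit1 (chr19:34640639-34640888 on the plus strand) and B2m (chr2:122147437-122147686 on the plus strand) are shown to compare how the element stands in genes that rose together. Capitals mark the matches: 3 overlapping copies in Isg15 at -78, -72 and -66, 2 on the other strand in Ifit1 at -104 and -85, and 1 in B2m at -139.
Isg15: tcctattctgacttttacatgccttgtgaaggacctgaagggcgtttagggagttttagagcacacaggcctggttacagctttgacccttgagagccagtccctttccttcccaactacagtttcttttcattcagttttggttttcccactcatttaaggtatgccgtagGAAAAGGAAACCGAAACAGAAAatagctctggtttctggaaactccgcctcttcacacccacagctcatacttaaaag
Ifit1: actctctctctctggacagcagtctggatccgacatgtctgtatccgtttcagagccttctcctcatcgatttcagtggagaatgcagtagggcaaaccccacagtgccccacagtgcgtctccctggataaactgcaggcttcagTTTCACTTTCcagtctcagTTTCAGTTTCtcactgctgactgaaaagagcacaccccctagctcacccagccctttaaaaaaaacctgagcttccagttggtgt
B2m: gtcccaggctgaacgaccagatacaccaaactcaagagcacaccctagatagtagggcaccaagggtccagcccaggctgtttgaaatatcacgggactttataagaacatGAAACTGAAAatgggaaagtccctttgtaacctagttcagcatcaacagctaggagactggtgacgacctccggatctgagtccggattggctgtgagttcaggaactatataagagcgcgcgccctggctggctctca

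Genes that respond to receptor signals in selection were mixed. Of 21, 6 rose and 2 fell, against 20.8% and 16.9% of all genes. Without CD8SP replicate 3 and DP replicate 1, 7 rose and 2 fell, against 30.4% and 27.2% of all genes. The falls were 1 without CD8SP replicate 1, CD8SP replicate 2, DP replicate 2 or DP replicate 3. The nuclear receptors Nr4a3 (1.48 ± 0.26) and Nr4a2 (1.84 ± 0.26) rose, while Nr4a1, which encodes Nur77, had 225, 92.3 and 231 CPM in CD8SP and 151, 96.8 and 96.5 CPM in DP and overlapped. Egr3 rose by 1.4 ± 0.2, and Egr1 (-0.31 ± 0.28) and Egr2 (0.13 ± 0.27) did not pass. Cd5, a surface measure of receptor signal strength, had 359.7, 200.3 and 358 CPM in CD8SP and 359.9, 217 and 216 CPM in DP, with overlap. Bach2, a repressor of effector genes, had 87.7, 72.9 and 56.8 CPM in CD8SP, against 18.6, 15.8 and 14.9 CPM in DP, a change of 2.14 ± 0.19. Gfi1 fell by 1.0 ± 0.18.

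Signalling proteins next to the receptor were more often lower than higher. Of 40, 4 rose and 12 fell, against 20.8% and 16.9% of all genes. Without CD8SP replicate 3 and DP replicate 1, 9 rose and 16 fell, against 30.4% and 27.2% of all genes. As over all genes, fewer passed without some libraries. The counts were 1 and 2 without CD8SP replicate 1, 2 and 2 without CD8SP replicate 2, 9 and 12 without DP replicate 1, 1 and 5 without DP replicate 2 and 1 and 4 without DP replicate 3. Without CD8SP replicate 1, the 2 falls stand beside 5.36% of all genes. The 3 calls that held each time were the ubiquitin ligase Cbl (-1.42 ± 0.31), the kinase Tec (-1.64 ± 0.26) and the phosphatase Ubash3b (2.16 ± 0.31). Zap70, at 257, 227 and 279 CPM in CD8SP and 364, 227 and 224 CPM in DP, and Cd3e (-0.26 ± 0.27) did not pass.

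Immediate-early genes rose more often than they fell, 16 and 3 of 27, against 20.8% and 16.9% of all genes, with a median of 1.11. Without CD8SP replicate 3 and DP replicate 1, 17 rose and 4 fell, against 30.4% and 27.2% of all genes. Fos had 83.7, 65.04 and 123 CPM in CD8SP, against 3.13, 4.002 and 3.52 CPM in DP, a change of 4.67 ± 0.28. Jun had 53.1, 79.3 and 133 CPM in CD8SP, against 17.3, 7.65 and 7.16 CPM in DP, a change of 3.05 ± 0.45. Here replicate 3 was the highest CD8SP library. Junb (1.87 ± 0.24), Fosb (4.39 ± 0.65) and Fosl2 (3.41 ± 0.36) rose too. Btg2, an antiproliferative gene, fell by 1.82 ± 0.24. The 3 falls were 1 without CD8SP replicate 1, CD8SP replicate 2 or DP replicate 1.

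NF-kB and TNF receptor genes rose in 11 of 28 and fell in 4, against 20.8% and 16.9% of all genes. Without CD8SP replicate 3 and DP replicate 1, 12 rose and 5 fell, against 30.4% and 27.2% of all genes. The increases were 7 and the falls none without CD8SP replicate 1, and the falls 1 without CD8SP replicate 2 and 2 without DP replicate 2 or 3. Tnfrsf9 (3.49 ± 0.35), the costimulator 4-1BB, Tnfrsf1b (2.19 ± 0.2), the second TNF receptor, Relb (1.66 ± 0.32) and Lta (2.03 ± 0.26) rose in every alternative that left out 1 library. Of 14 Notch receptors and targets, 5 rose and 2 fell, against 20.8% and 16.9% of all genes. Without both libraries, 6 rose and 4 fell, against 30.4% and 27.2% of all genes. The falls were 4 without CD8SP replicate 3 and 1 without CD8SP replicate 1, CD8SP replicate 2 or DP replicate 3. Dtx1, a regulator of Notch, had 113, 142 and 91.9 CPM in CD8SP, against 20.6, 17.1 and 12.8 CPM in DP, a change of 2.78 ± 0.24, and Hes1 rose by 2.3 ± 0.39.

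Chemokine receptors and integrins rose in 13 of 28 and fell in 5, against 20.8% and 16.9% of all genes. Without CD8SP replicate 3 and DP replicate 1, 17 rose and 7 fell, against 30.4% and 27.2% of all genes. The falls were 3 without CD8SP replicate 1, CD8SP replicate 2, DP replicate 2 or DP replicate 3. Cxcr6 (5.05 ± 0.48) and Gpr183 (2.22 ± 0.26), a receptor for oxysterols, rose beside those named above. Among GIMAP and Schlafen genes, 7 of 15 rose and 1 fell, against 20.8% and 16.9% of all genes. Without both libraries, 10 rose and 1 fell, against 30.4% and 27.2% of all genes. Gimap3 (4.16 ± 0.31) and Gimap4 (3.72 ± 0.34), GTPases of lymphocyte survival, and Slfn1 (4.69 ± 0.34) led them.

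Cell cycle genes rose more often than they fell. Of 50, 20 rose and 3 fell, against 20.8% and 16.9% of all genes, with a median of 0.33. Without CD8SP replicate 3 and DP replicate 1, 24 rose and 4 fell, against 30.4% and 27.2% of all genes. The falls were none without CD8SP replicate 1 or 2 and 1 without DP replicate 2 or 3. All 6 tested genes of the MCM helicase rose, as in Mcm6 with 826, 714 and 640.4 CPM in CD8SP, against 299, 282 and 252 CPM in DP, a change of 1.39 ± 0.17. Pcna (1.2 ± 0.22), the replication clamp, Gins2 (1.76 ± 0.23), Cdc6 (1.18 ± 0.17), Tk1 (1.11 ± 0.14) and E2f1 (1.33 ± 0.16) rose with them, and all of these calls held with each library left out. The mitotic genes Mki67 (-0.1 ± 0.44), Top2a (0.02 ± 0.24), Ccnb1 (0.19 ± 0.21), Aurkb (0.31 ± 0.13) and Plk1 (0.2 ± 0.15) did not pass. Without DP replicate 1, which is low in such transcripts, the centromere genes Cenpe (-0.75, adjusted p = 0.0361) and Cenpf (-0.89, adjusted p = 0.0129) passed as lower in CD8SP. The Mki67 levels overlapped, with 801, 1298 and 769.7 CPM in CD8SP and 401, 1462 and 1213 CPM in DP.

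D-type cyclins changed in opposite directions. Ccnd2 had 602, 566 and 290.1 CPM in CD8SP, against 15.4, 16.6 and 11.6 CPM in DP, a change of 5.06 ± 0.34. Ccnd3, the cyclin of dividing thymocytes, had 944, 755 and 1232 CPM in CD8SP, against 2098, 1653 and 1592 CPM in DP, a change of -0.87 ± 0.23 whose call was lost without CD8SP replicate 1 (adjusted p = 0.085) or CD8SP replicate 2 (0.0791). On the authors' FPKM scale Ccnd3 had 506, 422 and 690.4 FPKM in CD8SP and 1062, 931 and 911 FPKM in DP. Ccnd2 had 103, 101 and 51.7 FPKM in CD8SP and 2.43, 2.96 and 2.08 FPKM in DP, so Ccnd3 was the higher of the pair in all 6 libraries. Cdk4 rose by 1.5 ± 0.18. Myc, which drives growth, had 195, 196 and 124 CPM in CD8SP, against 25.1, 24.5 and 23.9 CPM in DP, a change of 2.81 ± 0.21. CDK inhibitors and quiescence genes went the other way, with 3 of 26 that rose and 14 that fell and a median of -0.60. Over all genes 20.8% rose and 16.9% fell. Without CD8SP replicate 3 and DP replicate 1, 5 rose and 15 fell, against 30.4% and 27.2% of all genes. The falls were 7 without CD8SP replicate 1 and 8 without CD8SP replicate 2. Cdkn1b, which encodes the inhibitor p27, fell by 1.25 ± 0.19, with 113, 93.2 and 139 CPM in CD8SP and 238, 275 and 306 CPM in DP, and Ccng2 (-1.33 ± 0.22) and Cdkn2d (-0.85 ± 0.17) fell with it.

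All 35 ribosomal protein genes of the list rose, against 20.8% of all genes, by 0.81 to 1.88 on the log2 scale with a median of 1.27. Without CD8SP replicate 3 and DP replicate 1, 35 rose, against 30.4% of all genes. With 1 library left out, 32 to 35 rose, against 12.8% to 24.8% of all genes. Summed, they came to between 31533 and 43536 CPM in CD8SP, against between 14423 and 17558 CPM in DP. Rps2 had 2194, 1965 and 1478 CPM in CD8SP, against 620.3, 483 and 428 CPM in DP. In CD4SP, 27 of the 35 rose from DP, beside 2793 of all 11923 genes tested there. Set directly against CD4SP, 29 of 35 were higher in CD8SP, against 24.1% of all genes. Ribosomal protein genes have many processed copies, so their counts depend on how reads were assigned.

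Glycolysis genes rose in 6 of 20 and fell in 2, against 20.8% and 16.9% of all genes. They rose in 13 and fell in 1 without DP replicate 1, against 24.8% and 21.2% of all genes. Without both libraries they rose in 13 and fell in 3, against 30.4% and 27.2% of all genes. None fell without CD8SP replicate 1, CD8SP replicate 2, DP replicate 2 or DP replicate 3. DP replicate 1 had the highest DP level of Gapdh, at 2363 CPM, with 1497 and 1386 CPM in DP replicates 2 and 3. Tpi1 (1.62 ± 0.17), Hk2 (1.93 ± 0.23) and Ldha (1.08 ± 0.21) rose in every alternative that left out 1 library. Cholesterol synthesis genes rose in 7 of 25 and fell in 2, against 20.8% and 16.9% of all genes. The counts were 1 and 1 without CD8SP replicate 1, 2 and 1 without CD8SP replicate 2, and 4 and 1 without DP replicate 2 or 3. Without both CD8SP replicate 3 and DP replicate 1, 11 rose and 3 fell, against 30.4% and 27.2% of all genes. Of 22 DNA methylation and histone-modifying genes, 3 rose and 5 fell, against 20.8% and 16.9% of all genes. The counts were 4 and 9 without both libraries, against 30.4% and 27.2% of all genes, with 2 falls without CD8SP replicate 1 or 2. The methyltransferase Dnmt3b (2.02 ± 0.2) and Uhrf1 (0.87 ± 0.18), which guides maintenance methylation, rose, and the histone demethylases Kdm6b (-1.33 ± 0.28) and Kdm6a (-0.65 ± 0.14) fell. Of 16 sphingolipid and glycan enzymes, 3 rose and 4 fell, shares near the 20.8% and 16.9% of all genes. Without both libraries 6 rose and 6 fell, against 30.4% and 27.2% of all genes. The falls were 1 without CD8SP replicate 1 and 2 without CD8SP replicate 2. The sialyltransferase St3gal1 (1.37 ± 0.18) and the ganglioside enzyme B4galnt1 (1.9 ± 0.24) rose, and Cers6 (-1.7 ± 0.18), a ceramide synthase, fell.

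**Figure D5:**
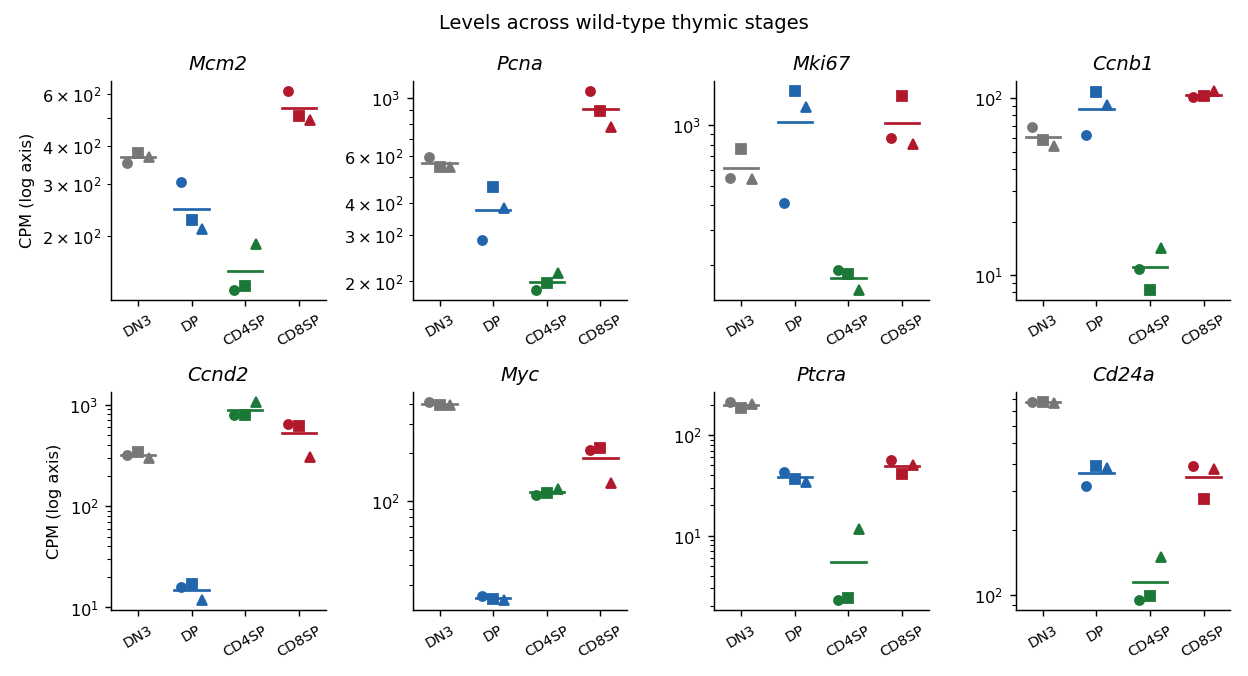
Levels in CPM (log axis) of 8 genes in 3 libraries each of wild-type DN3, DP, CD4SP and CD8SP, normalised over these 12 libraries, with a line at the mean. Mcm2 and Pcna are highest in CD8SP, Mki67, Ccnb1, Ptcra and Cd24a are lowest in CD4SP and higher in CD8SP, and Ccnd2 and Myc are lowest in DP.

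Markers of most other cell types did not separate the stages, and the NK, regulatory T-cell and early double-negative lists summed higher in every CD8SP library than in any DP library. The counts of called markers below stand beside 20.8% of all genes that rose and 16.9% that fell. Without CD8SP replicate 3 and DP replicate 1 these shares were 30.4% and 27.2%. Summed over 10 B-cell markers, levels were 11.5 to 26.6 CPM in CD8SP and 18.2 to 23.3 CPM in DP, and over 16 myeloid and dendritic-cell markers 32.8 to 108 CPM in CD8SP and 34.1 to 78.6 CPM in DP. None of the 5 tested B-cell markers passed, with 1 of 3 lower without both libraries. Of 11 tested myeloid markers only Itgam passed, and none did without CD8SP replicate 1 (adjusted p = 0.0537). Without both libraries, 5 myeloid markers were higher and 1 lower, against 30.4% and 27.2% of all genes. Thymic stroma markers came to 117 to 157 CPM in CD8SP and 143 to 243 CPM in DP, with none of the 6 tested called and 1 lower without both libraries. Most of it was Pecam1, which thymocytes express, at 116, 107 and 149.8 CPM in CD8SP and 229, 135 and 149 CPM in DP, and Foxn1 was at 0.1897, 0 and 0.0853 CPM in CD8SP and 0.427, 0.118 and 0.0782 CPM in DP. Erythroid and platelet markers came to 18.1 to 183 CPM in CD8SP and 32.3 to 155 CPM in DP, without a call among the 6 tested and with 1 lower without both libraries. Of 10 NK and innate lymphoid markers, 3 could be tested and Kit (2.14 ± 0.28) and Rora (0.87 ± 0.29) rose, and only 1 passed when any one library other than CD8SP replicate 3 was left out, while Gata2 was at 0 in all 6 libraries and Ncr1 had 0.142, 0.0362 and 0 CPM in CD8SP and 0, 0.0392 and 0 CPM in DP. Without both libraries, 4 could be tested and 4 rose, against 30.4% of all genes. The sums were 15.4 to 28.96 CPM in CD8SP and 8.91 to 10.2 CPM in DP. Of the NKT and gamma-delta markers, Il17a and Il4 were at 0 in all 6 libraries and Zbtb16, the factor of NKT cells, had 0.0949, 0.0723 and 0.0427 CPM in CD8SP and 0.0474, 0.196 and 0.0391 CPM in DP. Of 4 tested, Blk (1.98 ± 0.41) and Cd163l1 rose, as many as without both libraries. DP held at most 3 reads per library of Cd163l1, so no fold change is given for it. The NKT and gamma-delta list summed to 4.19 to 5.59 CPM in CD8SP and 2.31 to 4.84 CPM in DP. Of 8 tested regulatory T-cell markers, 3 rose and 1 fell, against 20.8% and 16.9% of all genes. Without both libraries, 5 rose and 1 fell, against 30.4% and 27.2% of all genes. The 9 markers summed to 254 to 300 CPM in CD8SP, against 154 to 228 CPM in DP, with Foxp3 at 2.94, 4.95 and 1.41 CPM in CD8SP and 0.332, 0.628 and 0.313 CPM in DP (2.85 ± 0.55). The 12 early double-negative markers summed to 163 to 209 CPM in CD8SP, against 72.1 to 89.2 CPM in DP, and 3 of 8 tested rose (Kit, Hes1 and Dtx1) and 1 fell (Il2ra), the same counts as without both libraries. Most of the difference between the sums was in Dtx1, whose levels stand above and which had 113, 132 and 145 CPM in CD4SP when normalised over the 12 libraries. Their part in the results above was not tested.

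Compared directly with CD4SP, CD8SP differed in 2859 genes that were higher and 2445 that were lower of 11859 tested, 24.1% and 20.6%, and 44.7% in all. The total of 5304 was 3515 without CD4SP replicate 2. Differences are CD8SP over CD4SP on the log2 scale. The 6 largest differences in each direction included genes of both lineages. Itgae (4.6 ± 0.38), Cd8a (4.52 ± 0.52), Gzma (4.44 ± 0.7), Adgrg5 (4.04 ± 0.46), Gpr25 (4.53 ± 0.62) and Kcnc1 (4.22 ± 0.45) were higher in CD8SP. Zbtb7b (-8.44 ± 0.45), Ptgir (-6.34 ± 0.24), Mmp9 (-6.74 ± 0.55), Cd40lg (-5.76 ± 0.47) and Asb2 (-5.58 ± 0.25) were lower, as was Klra9, for which CD8SP held at most 3 reads per library. CD4SP replicate 3 stands apart from the other CD4SP libraries in transcripts that are high in DP, with 46.7, 43.2 and 147 CPM of Cd8a in CD4SP. Without it, Cd8a differed by 5.36, Gzma by 5.96 and Gpr25 by 5.95, and Rag1, described below, by 4.66. Of the others, Zbtb7b was at -9.11 without CD8SP replicate 3, Cd40lg at -6.4 and Mmp9 at -7.38 without CD8SP replicate 1, and Adgrg5 at 3.44 without CD8SP replicate 2. Zbtb7b had 1.39, 0.597 and 2.66 CPM in CD8SP, against 528, 528 and 539 CPM in CD4SP. CD4SP itself, set against DP, had at least 2-fold increases in 13.8% and decreases in 10.6% of the genes tested.

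Genes of cell division differed between the branches. Of 50 cell cycle genes, 48 were higher in CD8SP than in CD4SP and none was lower, with a median difference of 2.42. Over all genes, 24.1% were higher and 20.6% lower. Mki67 had 838, 1340.1 and 787 CPM in CD8SP, against 183, 175 and 147 CPM in CD4SP, a difference of 2.55 ± 0.23. Of the 24 DP programme genes, 15 were higher and 2 lower, against 24.1% and 20.6% of all genes. The higher ones were 9 without CD4SP replicate 1, where calls over all genes went from 5304 to 3619. The lower ones were 5 without CD8SP replicate 3, where calls over all genes were 5533. Rag1 had 644, 462 and 3000.3 CPM in CD8SP, against 62.5, 48.4 and 295 CPM in CD4SP, a difference of 3.34 ± 0.98. The call was lost without CD8SP replicate 3 (2.02, adjusted p = 0.0694), CD4SP replicate 1 (2.99, 0.137) or CD4SP replicate 2 (2.94, 0.141) and without the filter on low counts (adjusted p = 0.115). Ptcra had 214, 184 and 202 CPM in DN3, 42.99, 36.5 and 34.4 CPM in DP, 2.27, 2.39 and 11.6 CPM in CD4SP and 56.8, 40.7 and 49.9 CPM in CD8SP when normalised over the 12 libraries. Of the positive selection genes, 15 of 21 were lower in CD8SP than in CD4SP and 1 was higher, against 20.6% and 24.1% of all genes. Itm2a (-3.11 ± 0.35) and Nr4a1 (-1.99 ± 0.32) were among the lower ones. Of the maturation genes, 16 of 31 were lower, as in Il7r (-1.95 ± 0.2), and 1 was higher, against 20.6% and 24.1% of all genes. The higher ones were 0 to 2 with 1 library left out. Of the interferon-stimulated genes, 28 of 46 were lower and none higher, against 20.6% and 24.1% of all genes. The lower ones were 14 without CD4SP replicate 1, 15 without CD4SP replicate 2 and 17 without CD8SP replicate 1. Calls over all genes were 3619, 3515 and 3898 in these alternatives. B2m (adjusted p = 0.999) and H2-K1 (-0.33 ± 0.3) did not pass between the branches.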

How the data were processed

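RNA of sorted wild-type thymocytes was analysed in 3 libraries each of CD8SP, DP and CD4SP, with levels of 3 DN3 libraries beside them. The authors deposited read counts per gene and FPKM values. The counts are whole numbers, with 21432962 to 26908811 reads per CD8SP or DP library and 23815785 to 25252108 per CD4SP library. FPKM values were used here only to compare levels between genes and, for Runx3, Il2rb, Cxcr3 and Gzmb, between stages. Per the submitters' processing notes, HISAT, Bowtie2, DESeq2 and MACS2 were run somewhere in the series, on mm10 or mm9, with no roles stated. How reads were trimmed and assigned to genes, and whether strand was used, was not stated. Of the 19521 genes, 25 symbols had been turned into dates. The table also holds 4 columns of samples not analysed here. A final N of unstated meaning marks 12 of the 40 count columns, including CD8SP replicate 1 and DP replicate 1.

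The test was that of edgeR 4.0.16 (R 4.3.3, filterByExpr with minimum count 10 and minimum total 15, TMM, robust quasi-likelihood test, two-sided, Benjamini-Hochberg adjustment, prior count 0.125). The fit used only the 6 libraries of the 2 stages compared. On simulated counts the test was checked before use. Genes named for their size had an adjusted p under 0.05, groups without overlap and a mean of at least 5 CPM (the 12 largest changes each way, 6 for CD4SP), leaving out predicted genes, receptor segments, pseudogenes and small RNAs; other named genes are members of 33 gene lists, of whose 657 genes 5 were not in the table. Some genes that these rules name are not reported here. The members and lists were chosen with earlier results of these data known. Lists were described by counts and medians, with no set test. Promoter sequences are from RefSeq, build GRCm38.p6, and were matched by symbol. Alternatives were other scaling factors, no filter, DESeq2 1.42.0, a non-robust fit, each library left out, a replicate block, a term for the letter N and a fit of all wild-type libraries.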

Additional observations from a re-analysis of the deposited data

Results flagged for a closer look

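In 8 genes the 2 single-positive branches moved in opposite directions from DP by at least 2-fold each, and CD8SP and CD4SP differed in the direct test. The changes from DP share the DP libraries and are only set side by side, and the direct differences of CD8SP over CD4SP (edgeR, log2) belong to genes picked for them, so they describe these genes and are no separate test. Ccne1, a cyclin of the entry into DNA synthesis, changed by 1.14 ± 0.14 in CD8SP and by -1.19 ± 0.16 in CD4SP, and the direct difference was 2.39. Cdc6, which loads the replication helicase, changed by 1.18 ± 0.17 in CD8SP and by -1.66 ± 0.33 in CD4SP, with a direct difference of 2.9. For Gins2, of the active helicase, the values were 1.76 ± 0.23, -1.45 ± 0.23 and 3.28, and for Tk1, the thymidine kinase, 1.11 ± 0.14, -1.9 ± 0.18 and 3.07. Gzma changed by 1.92 ± 0.19 in CD8SP and by -2.45 ± 0.7 in CD4SP, with a direct difference of 4.44, and of 5.96 without CD4SP replicate 3. Idi1, of isoprenoid synthesis, changed by 1.25 ± 0.31 in CD8SP, a call lost without CD8SP replicate 1 (adjusted p = 0.0638) or CD8SP replicate 2 (0.0535), and by -1.07 ± 0.31 in CD4SP, with a direct difference of 2.39. Il2ra, the IL-2 receptor alpha chain, fell by 1.3 ± 0.18 in CD8SP and rose by 1.58 ± 0.19 in CD4SP, with a direct difference of -2.82. Zbtb7b changed by -1.81 ± 0.51 in CD8SP, a call lost without CD8SP replicate 1 (adjusted p = 0.095), CD8SP replicate 2 (0.0523) or DP replicate 2 (0.0748), and by 6.67 ± 0.27 in CD4SP, with a direct difference of -8.44. CD8SP replicate 3 and CD4SP replicate 3, with their DP transcripts, enter these values, and their part was not tested.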

How the results depend on the processing

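No call of CD8SP against DP was reversed by any alternative run. The 4408 calls ranged between 4234 and 4486 under the other scaling factors, without the filter and with a non-robust fit, and were 4954 with DESeq2, 5798 in a fit of all wild-type libraries and 5608 with a term for the letter N. With 1 library left out they ranged between 2163 and 5495. Without both libraries that stand apart, an alternative chosen after the data were seen, they were 6835. Over the genes named against DP, 3122 values under the alternatives kept their side of the threshold, 103 fell below it and 55 passed it. Genes that rose made up 55.2% of calls, and 61.8% with upper-quartile factors. Same-numbered libraries of the 2 stages share a number, and CD8SP replicate 1 and DP replicate 1 also share the letter N. The labels do not say whether they share a source, and the main test has no term for it. Deviations of same-numbered libraries correlated at 0.451, 0.454 and 0.0996, each best with its own number. A replicate block gave 5430 calls. Against CD4SP the 5304 calls ranged between 3515 and 5533 with 1 library left out and between 5165 and 5684 otherwise, with 5400 under the replicate block. The term for the letter N was not run there, since CD8SP replicate 1 is the only such library. Depth limits transcripts of few reads, as in Gzmb and Ifng.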
